A study of Mus musculus with 88 samples.

Results

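Interleukin 6 (Il6), interleukin 10 (Il10), leukaemia inhibitory factor (Lif) and the 3 subunits of interleukins 12 and 23 (Il12a, Il12b and Il23a) were followed in RAW 264.7 cells, an established mouse macrophage-like line, over 4 h of treatment. The genes were chosen by name as the Il6, Il10 and Il12 family cytokines, with earlier results of these data known. They make up 6 of the 10518 genes tested. They are read by 10 of the 13260 probes tested: 1 each for Il6 and Il12b, and 2 each for Il10, Il12a, Il23a and Lif. With LPS alone, Il10 and Lif were called higher from 1 h and Il6 from 2 h, though the genes were not tested against each other. At 4 h Il6 stood 24.9-fold and Il10 9.22-fold above medium. Lif stood 3.54-fold above medium as the mean of its 2 probes, 1 of which is listed at 0 on 77 of 88 arrays, and 12.5-fold on the other probe. Il23a and Il12a, each as the mean of 2 probes, moved by at most 1.36-fold in any group with LPS. The Il12a probes disagreed: probe 15389 read higher than probe 8403 and was called at each time of LPS alone. Il12b was not called in any of the 9 groups with LPS.

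Il6 and Lif signal through receptors that share the gp130 chain (gene Il6st), Il10 through its own receptor pair, and all of them reach the nucleus mainly through JAK kinases and Stat3. Il10 holds back inflammatory gene expression in macrophages, while Il6 and Lif drive the acute-phase response and support cell survival. Il12b encodes the p40 chain, which pairs with p35 (Il12a) to make interleukin 12 and with p19 (Il23a) to make interleukin 23, so that a dimer is secreted only where p40 is also made.

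Cells received LPS at 100 ng/ml, isoproterenol (ISO, an agonist of beta-adrenergic receptors) at 50 nM, prostaglandin E2 (PGE2, a lipid that signals through its own G protein-coupled receptors) at 10 µM, LPS+ISO or LPS+PGE2. Each was given for 1, 2 or 4 h, which makes 15 groups. The labels list 100 pM of lipid binding protein with LPS alone and not with the combinations. ISO and PGE2 receptors both couple to cyclic AMP. Each group was measured as 3 sets numbered 1 to 3 (2 sets for PGE2 at 1 h). A set is a pair of 2-colour arrays of the same treatment, 1 with the treated RNA in Cy5 and 1 with it in Cy3, each against time-matched medium, so that 88 arrays gave 44 values per gene. All groups come from 1 cell line. The labels do not say whether sets were separate cultures, so p-values rest on how far sets differ, and that spread can be technical.

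The promoters of the members differ in the short motifs they hold. Printed are 3 of them: Il6 and Lif, called higher with LPS alone, and Il12b, not called there. Whether these motifs bear on the response to LPS was not tested. Windows were taken from RefSeq on GRCm38.p6, from 250 bases before to 50 bases after a start site. The table gave windows for 4 of the 6 members, not for Il10 or Il23a. The printed windows lie at chr5:30012864-30013163 (Il6), chr11:4257318-4257617 (Lif) and chr11:44399813-44400112 (Il12b), all on the plus strand. Capitals mark matches to 1 of 6 motifs searched on both strands. These were a kB-like motif GGANNTTCC, a C/EBP-like motif TTGCNNAA, a cyclic AMP response element core (CRE core) TGACG, the AP-1 motif TGANTCA, an ISRE-like motif GAAANNGAA and a TATA box TATAAA.
Il6: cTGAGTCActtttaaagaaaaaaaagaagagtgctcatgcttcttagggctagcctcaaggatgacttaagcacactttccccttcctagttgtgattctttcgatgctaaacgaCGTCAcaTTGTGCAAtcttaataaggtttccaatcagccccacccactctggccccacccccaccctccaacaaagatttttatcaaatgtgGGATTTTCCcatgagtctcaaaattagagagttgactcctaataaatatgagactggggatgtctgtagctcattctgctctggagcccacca
Lif: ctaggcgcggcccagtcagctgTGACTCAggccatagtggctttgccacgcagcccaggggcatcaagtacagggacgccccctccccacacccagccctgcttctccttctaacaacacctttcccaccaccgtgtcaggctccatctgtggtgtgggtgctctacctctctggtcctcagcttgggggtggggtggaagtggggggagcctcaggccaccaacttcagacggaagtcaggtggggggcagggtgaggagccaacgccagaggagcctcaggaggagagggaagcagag
Il12b: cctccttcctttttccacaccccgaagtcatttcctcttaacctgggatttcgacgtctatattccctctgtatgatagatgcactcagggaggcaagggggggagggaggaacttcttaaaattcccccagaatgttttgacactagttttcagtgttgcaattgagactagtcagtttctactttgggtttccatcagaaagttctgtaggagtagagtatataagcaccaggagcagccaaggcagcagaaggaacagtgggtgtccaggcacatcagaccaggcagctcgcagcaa
The Il6 window held 4 matches that did not overlap, with first bases at positions -249 (AP-1), -135 (CRE core), -128 (C/EBP-like) and -43 (kB-like) from the start site. The Lif window held 1 match, to AP-1 at position -228, and the Il12b window held none of these letters. For Il12a, whose 2 windows are not printed, each held 1 kB-like match, GGAATCTCC at position -194 of chr3:68690394-68690693 and GGAAAGTCC at position 19 of chr3:68691174-68691473. Among all 32851 windows of this length, 4.26% held the kB-like motif, 10.8% the C/EBP-like motif, 20.8% the CRE core, 7.81% the AP-1 motif, 8.56% the ISRE-like motif and 13.6% the TATA box. A match is a string of letters, and no binding was measured.

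All values are log2 ratios of treated over medium (0 is no difference and 1 is 2-fold), as deposited; they carry no absolute level, so members cannot be ranked by abundance. The direction of each ratio was turned by the dye labels and is likely rather than stated. With that direction, 20 known LPS target genes had a median above 0 on 18 of 18 arrays of each treatment with LPS. The check was weaker without LPS: 11 known cyclic AMP target genes had a median above 0 on 15 of 18 ISO arrays and 14 of 16 PGE2 arrays. Across probes, the 2 arrays of a set correlated with a median r of 0.602 with LPS and -0.048 without. Of the 17 pairs without LPS, 10 fell below 0. Of the deposited values, 10.9 to 45.7% per array were exactly 0. A 0 entered the set mean as deposited, and its origin was not given in the sources used here. Of the macrophage markers listed, 9 of 10 had a value other than 0, 8 of them on over 50% of arrays; markers of T, B, fibroblast, endothelial and epithelial cells also gave ratios, and ratios do not show whether a marker was expressed. The number of sets limits the precision, and in RNA from whole cultures, fewer cells making a transcript cannot be told apart from less of it per cell.

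Of the 6 members, 4 were called higher with LPS alone at 1 h (Il10, Il12a, Il23a and Lif), where 9.48% of all genes were called and 4.64% were called higher. At 2 h the count was 4 of 6 (Il6, Il10, Il23a and Lif), against 15.9% of all genes called and 8.88% called higher. At 4 h it was 5 of 6, all except Il12b, against 30.7% called and 14.3% called higher. No member was called lower. The median over the members was 0.43, 1.13 and 1.10 on the log2 scale at the 3 times, beside a median of 0 over all genes. A call is an adjusted p (limma, Benjamini-Hochberg over all genes) under 0.05.

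The combinations gave much the same counts over medium. With LPS+ISO, 4 of 6 members were called higher at each time, against 7.43, 13.9 and 30% of all genes called at 1, 2 and 4 h and 4.15, 7.7 and 14.4% called higher. With LPS+PGE2, 4, 4 and 5 of 6 were called higher, against 7.68, 13.3 and 31.6% called and 4.7, 7.49 and 15.2% called higher. Over the 9 groups with LPS, Il10, Lif and Il23a were called in all 9, Il6 in 6, Il12a in 5 and Il12b in 0, which makes 38 of 54 values; Il12b had 1 of its 9 values at an unadjusted p under 0.05.

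**Figure D1:**
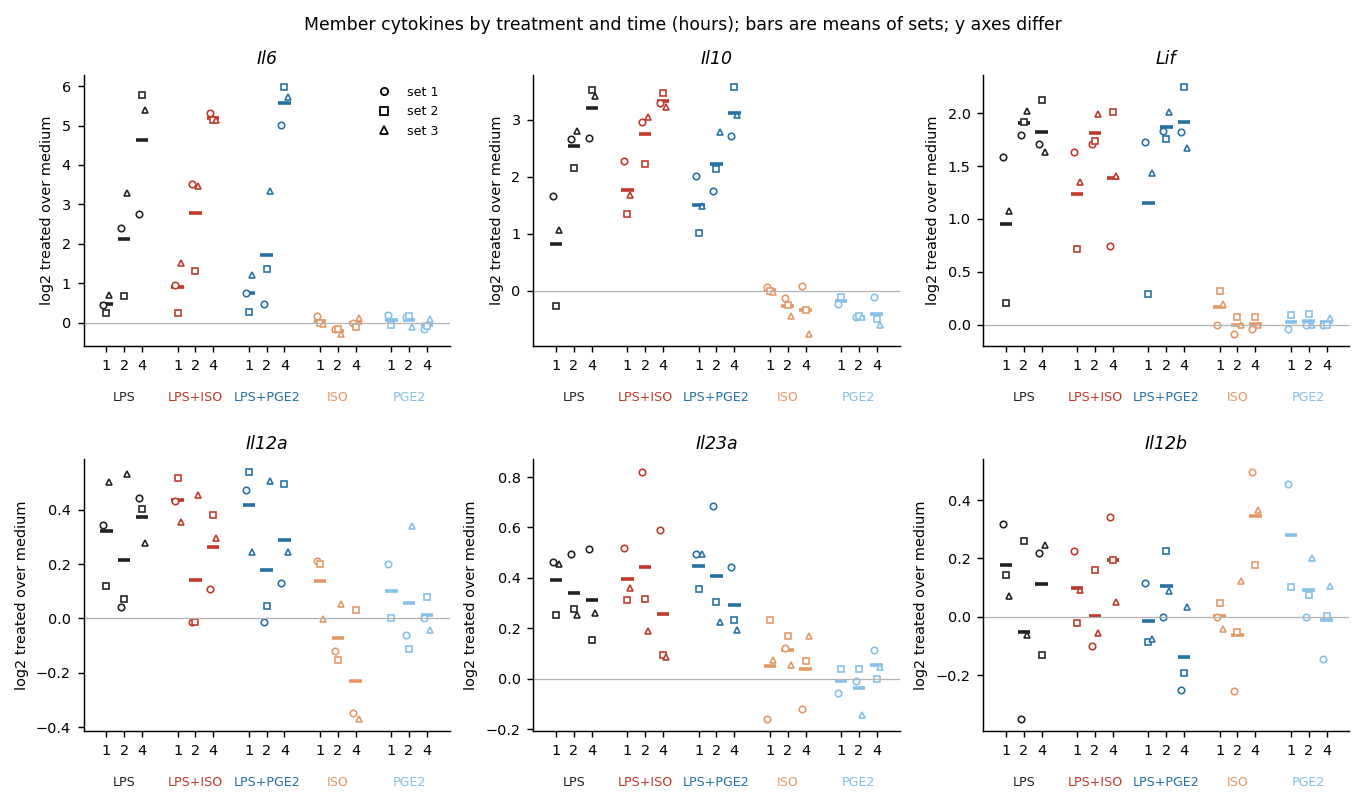
Log2 ratio of treated over medium for each member (panels), by treatment and time (horizontal axis); each point is 1 set and bars mark the group mean. Il6 reached set values from 2.75 to 5.98 with LPS at 4 h, while Il12b stayed between -0.35 and 0.50 in all 15 groups.

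Il6, the main pyrogenic and acute-phase cytokine of the family, rose late. With LPS alone its sets stood at 0.45, 0.26 and 0.71 at 1 h, at 2.41, 0.67 and 3.29 at 2 h, and at 2.75, 5.77 and 5.40 at 4 h. Every set lay above 0, set 2 was the lowest at 1 and 2 h, and at 4 h set 1 stood far below the others, within the range of the 2 h sets. The mean was 0.47 ± 0.23 (SD, n = 3) at 1 h, which was not called (adjusted p = 0.637), 2.12 ± 1.33 at 2 h (4.35-fold, adjusted p = 0.000577) and 4.64 ± 1.64 at 4 h (24.9-fold, adjusted p = 2.02e-10). The low set at 4 h came from 1 array: set 1 was 0.00 with the treated RNA in Cy5 and 5.51 with it in Cy3, whereas sets 2 and 3 ran from 5.29 to 5.83 on all 4 arrays. With exact zeros taken as missing, the 4 h mean was 5.56. Over all groups the Il6 ratio was higher in Cy3 than in Cy5 in 21 of 27 sets with LPS (median difference 0.35) and in 14 of 17 without (0.57). The call at 2 h was lost without set 3 (mean 1.54, adjusted p = 0.0533).

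Between 2 and 4 h the Il6 ratio rose by 2.52 (SE 0.62, adjusted p = 0.00541), a contrast in which 11% of all genes were called. The rise of 1.65 from 1 to 2 h was not called (SE 0.62, adjusted p = 0.203), in a contrast with 2.05% of genes called. Both depended on the sets used. The 4 h against 2 h call was lost without set 2 at 2 h (1.79, adjusted p = 0.0988) and without set 2 or set 3 at 4 h (1.96 and 2.14, adjusted p = 0.065 and 0.0529). The 2 h against 1 h difference passed without set 2 at 2 h (2.38, adjusted p = 0.0371).

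Il6 rose with both combinations as well. With LPS+ISO the Il6 sets were 0.96, 0.25 and 1.53 at 1 h, 3.51, 1.32 and 3.48 at 2 h, and 5.32, 5.13 and 5.15 at 4 h. With LPS+PGE2 they were 0.76, 0.27 and 1.21, then 0.48, 1.37 and 3.34, then 5.01, 5.98 and 5.73. At 4 h every combination set lay above every set of the earlier times, and the LPS+ISO sets were the tightest of any Il6 group with LPS. The means at 4 h were 5.20 ± 0.11 (36.8-fold, adjusted p = 1.67e-11) and 5.57 ± 0.50 (47.6-fold, adjusted p = 3.25e-12). At 2 h they were 2.77 ± 1.25 (adjusted p = 1.67e-05) and 1.73 ± 1.46 (adjusted p = 0.0055), and the second was lost without set 3 (0.92, adjusted p = 0.33). At 1 h neither was called (adjusted p = 0.252 and 0.39).

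Il10, the anti-inflammatory member, was called at 1 h, when Il6 was not. The 2 genes were not tested against each other. Each call rests on the spread of that gene over all 15 groups. For Il6 with LPS alone the SD was 0.23 at 1 h and 1.64 at 4 h. At 1 h of LPS alone the Il10 sets were 1.66, -0.26 and 1.06, at 2 h 2.66, 2.15 and 2.81, and at 4 h 2.68, 3.52 and 3.42. Set 2 at 1 h was the only Il10 set with LPS below 0; all sets at 2 and 4 h lay above all sets at 1 h, and the ranges at 2 and 4 h overlapped. The means were 0.82 ± 0.99 at 1 h (1.77-fold, adjusted p = 0.0251), 2.54 ± 0.34 at 2 h (adjusted p = 1.38e-09) and 3.20 ± 0.46 at 4 h (adjusted p = 8.61e-13). The 1 h call was lost without set 1 (0.40, adjusted p = 0.68) or set 3 (0.70, adjusted p = 0.162), and without set 2 the mean was 1.36.

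Set 2 at 1 h was low for more than Il10. The median of the 20 LPS target genes was 1.89, 1.60 and 2.69 in sets 1, 2 and 3 of LPS at 1 h, and set 2 was also the lowest at 1 h in both combinations. Whether this bears on the 1 h values of the members was not tested. From 1 to 2 h Il10 rose by 1.72 (SE 0.34, adjusted p = 0.00424); without set 2 at 1 h the rise was 1.17 and no longer called (adjusted p = 0.0526), nor was it without set 3 at 2 h (1.58, adjusted p = 0.0537). The rise of 0.67 from 2 to 4 h was not called (adjusted p = 0.27).

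Both combinations raised Il10 at every time. With LPS+ISO the sets were 2.27, 1.34 and 1.68 at 1 h, 2.96, 2.22 and 3.05 at 2 h, and 3.29, 3.47 and 3.23 at 4 h. With LPS+PGE2 they were 2.02, 1.01 and 1.49, then 1.75, 2.14 and 2.79, then 2.72, 3.58 and 3.08. Set 2 was again the lowest at 1 h, but here above 1. The means at 1 h were 1.76 ± 0.47 (adjusted p = 3.5e-06) and 1.50 ± 0.50 (adjusted p = 4.65e-05), and at 4 h 3.33 ± 0.13 (adjusted p = 4.18e-13) and 3.13 ± 0.43 (adjusted p = 1.74e-12).

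The Il10 probes, which share a target, moved together. Probe 3225 had a value other than 0 on 85 of 88 arrays and probe 4474 on 86. They parted in set 1 of LPS+PGE2 at 2 h, where probe 3225 gave 0.00 with the treated RNA in Cy5 and 1.31 in Cy3, and probe 4474 gave 2.42 and 3.25.

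Lif, a gp130 cytokine named for its action on leukaemia cells, was called higher at all 3 times. One of its probes (11412) was other than 0 on 11 of 88 arrays, and its zeros, averaged in as deposited, pull the mean over both probes well below the value of the other probe. On probe 9040, LPS alone gave sets of 3.17, 0.30 and 2.14 at 1 h, 3.59, 3.58 and 4.04 at 2 h, and 3.41, 4.25 and 3.27 at 4 h. Set 2 at 1 h was low here too, and the 2 and 4 h sets overlapped and all lay above the 1 h sets. Fitted by probe, the means were 1.87 (adjusted p = 0.00234), 3.74 (adjusted p = 2.15e-08) and 3.64 (adjusted p = 8.97e-09), where 9.05, 15.4 and 29.3% of all probes were called.

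Averaged over probes, Lif stood at 0.96 ± 0.70 at 1 h (adjusted p = 0.0016), 1.91 ± 0.11 at 2 h (adjusted p = 1.1e-08) and 1.82 ± 0.27 at 4 h (adjusted p = 6.26e-09). The 1 h call was lost without set 1 (0.64, adjusted p = 0.161) and with that group fitted alone. By gene and by probe, the p-values rest on the spread of Lif over all 15 groups. Without LPS, where most Lif values are listed at 0, the SDs ran from 0.04 to 0.16, which lowers that spread. The rise of 0.95 from 1 to 2 h was not called (SE 0.29, adjusted p = 0.0815), but was with the set number within time as a block (adjusted p = 0.00919) and without set 1 at 1 h (1.27, adjusted p = 0.0216). From 2 to 4 h Lif changed by -0.09 (adjusted p = 0.948), while Il6 rose over the same interval; the difference between the 2 genes was not tested.

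The exact zeros of Lif differed by treatment, and not the same way on its 2 probes. Probe 9040 was exactly 0 on 2 of 54 arrays with LPS (3.70%) and on 25 of 34 arrays without it (73.5%), beside 23.0 and 21.1% over all probes tested. Probe 11412 was at 0 on 94.4% of arrays with LPS and on 76.5% without. In the groups given ISO or PGE2 alone, most Lif ratios are therefore listed at 0 and hold no measured difference. Il6 showed a smaller split, with 3.70% of its values at 0 with LPS and 20.6% without. Over the 10 member probes, 180 of 880 values were exactly 0 (20.5%, beside 22.3% over all probes tested).

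Lif rose in both combinations as well. On probe 9040 the LPS+ISO sets were 3.36, 1.44 and 2.70 at 1 h, 3.43, 3.48 and 3.99 at 2 h, and 1.49, 4.03 and 2.82 at 4 h. The LPS+PGE2 sets were 3.46, 0.58 and 2.86, then 3.67, 3.52 and 4.03, then 3.64, 4.50 and 3.35. The low value of LPS+ISO at 4 h was set 1, whose arrays gave 0.00 in Cy5 and 2.98 in Cy3. Set 2 of LPS+PGE2 at 1 h likewise had 0.00 in Cy5 and 1.17 in Cy3. This probe read higher in Cy5 than in Cy3 in 23 of the 27 sets with LPS, with means of 3.37 in Cy5 and 2.86 in Cy3.

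As means over their probes, the subunits of interleukins 12 and 23 moved little. For Il23a (p19), the sets under LPS alone were 0.46, 0.25 and 0.46 at 1 h, 0.50, 0.28 and 0.25 at 2 h, and 0.52, 0.16 and 0.26 at 4 h. All lay above 0 and the 3 times overlapped. The means were 0.39 ± 0.12 (1.31-fold, adjusted p = 0.00786), 0.34 ± 0.13 (adjusted p = 0.0128) and 0.31 ± 0.19 (adjusted p = 0.0132). Il23a was called higher in all 9 groups with LPS, by 1.20- to 1.36-fold, and its 27 sets there were all above 0.

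No Il23a call held on the arrays with the treated RNA in Cy3 alone, where none of the 9 values passed in limma (adjusted p from 0.0764 to 0.782). A fit on 1 dye keeps any dye offset and uses 1 array per set. On probe 4263 the Cy5 array gave the higher ratio in 24 of 27 sets with LPS and in 16 of 17 sets without it. The means were 0.57 in Cy5 and 0.23 in Cy3 with LPS, and 0.27 and -0.19 without. In both dyes the mean was thus higher with LPS than without. Leaving out set 1 ended 8 of the 9 calls, and in LPS+ISO at 4 h it lowered the mean from 0.26 to 0.09 (adjusted p = 0.719).

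For Il12a (p35), LPS alone gave sets of 0.34, 0.12 and 0.50 at 1 h, 0.04, 0.07 and 0.53 at 2 h, and 0.44, 0.40 and 0.28 at 4 h. All were above 0 and the times overlapped. The means were 0.32 ± 0.19 (adjusted p = 0.0491), 0.21 ± 0.27 (adjusted p = 0.198) and 0.37 ± 0.09 (1.30-fold, adjusted p = 0.0055). It was called in 5 of the 9 groups with LPS, and in 3 more with the set number within time as a block: LPS at 2 h, LPS+ISO at 4 h and LPS+PGE2 at 2 h (adjusted p = 0.0142, 0.00158 and 0.0469).

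The 2 Il12a probes disagreed. Under LPS alone, probe 15389 gave 0.74, 0.62 and 0.75 at 1, 2 and 4 h (adjusted p = 0.0253, 0.0479 and 0.00721, fitted by probe), and probe 8403 gave -0.10, -0.19 and -0.00, none of them called. Probe 15389 also differed by dye, with a mean of -0.52 in Cy5 and 0.61 in Cy3 over the 17 sets without LPS, and of 0.36 and 0.95 over the 27 sets with it. In limma on Cy5 arrays alone all 5 calls were lost, and LPS at 4 h was then 0.11 (adjusted p = 0.613). That fit keeps the dye offset too, and in both dyes the mean of probe 15389 was higher with LPS than without. Leaving out set 1 of its group ended 4 of the 5 calls, set 2 ended 3 and set 3 ended 2.

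For Il12b (p40), the chain shared by both dimers, LPS alone gave sets of 0.32, 0.14 and 0.07 at 1 h, -0.35, 0.26 and -0.06 at 2 h, and 0.22, -0.13 and 0.25 at 4 h. The sets lay on both sides of 0. The means were 0.18, -0.05 and 0.11 (SE 0.09, 95% intervals -0.01 to 0.36, -0.24 to 0.13 and -0.07 to 0.30; adjusted p = 0.268, 0.829 and 0.439). At 4 h the upper end of that interval is 0.30, beside an Il6 mean of 4.64. Il12b was read by 1 probe, listed at 0 on 11 of 54 arrays with LPS (20.4%, beside 23.0% over all probes). Ratios hold no signal level, so an unchanged transcript cannot be told apart from a probe that reads near background. Neither combination moved Il12b past the threshold, the highest mean being 0.20 with LPS+ISO at 4 h (adjusted p = 0.112; 0.0336 with the set number within time as a block).

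**Figure D2:**
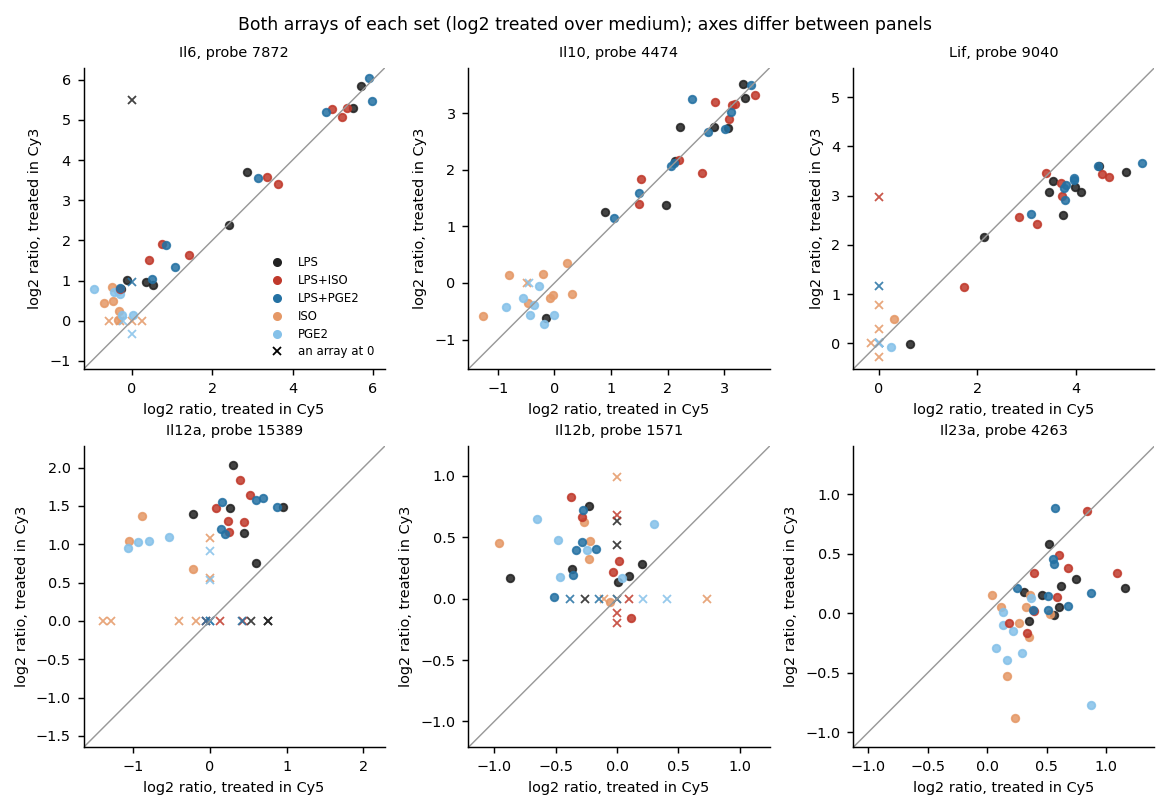
Log2 ratio with the treated RNA in Cy3 against that in Cy5, 1 point per set, for 1 probe of each member; crosses mark sets with an array at exactly 0, and the line marks equal values. Il10 probe 4474 lies on both sides of the line, Il6, Il12a probe 15389 and Il12b mostly above it, Lif probe 9040 below it at high ratios and Il23a probe 4263 mostly below.

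Without LPS, member means ran from -0.46 (Il10 with PGE2 at 2 h) to 0.35 (Il12b with ISO at 4 h). Among the 36 values of the 6 groups, 1 was called, Il12b with ISO at 4 h, where 3.36% of all genes were called. No member was called with ISO at 1 or 2 h (0.903 and 1.71% of genes called) or with PGE2 at 1, 2 or 4 h (0.323, 0.456 and 1.14%). In limma without adjustment, p was under 0.05 for 2 members with ISO at 4 h (Il12a and Il12b) and for 1 with PGE2 at 1 h (Il12b).

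The Il12b sets with ISO at 4 h were 0.50, 0.18 and 0.37, all above 0, with a mean of 0.35 ± 0.16 (1.27-fold, adjusted p = 0.0258). Its arrays were split by dye: 0.00, -0.27 and 0.73 in Cy5, and 0.99, 0.62 and 0.00 in Cy3. The call was lost on either dye alone (Cy5 0.16, adjusted p = 0.659; Cy3 0.54, adjusted p = 0.0801), without set 1 (0.27, adjusted p = 0.219) and without set 3 (0.34, adjusted p = 0.133). Over all sets the Cy3 array read 0.43 above the Cy5 array, with LPS and without. Il12a, with ISO at 4 h, had sets of -0.35, 0.03 and -0.37 and a mean of -0.23 (adjusted p = 0.272); with the set number within time as a block it passed (adjusted p = 0.0209).

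Il10 lay below 0 in every set given PGE2 alone. Its PGE2 sets were -0.23 and -0.12 at 1 h, -0.46, -0.45 and -0.46 at 2 h, and -0.11, -0.50 and -0.60 at 4 h. All 8 were negative, and none of the means of -0.17, -0.46 and -0.41 was called (at 2 h adjusted p = 1). The 3 sets at 2 h had an SD of 0.005. The test used the spread of Il10 over all 15 groups, among which LPS at 1 h had an SD of 0.99. With ISO the Il10 means were 0.01, -0.27 and -0.34. Il6 means without LPS stayed between -0.20 and 0.08, Il23a between -0.04 and 0.12, and Lif between -0.01 and 0.17.

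Whether ISO or PGE2 changed the response to LPS was read set by set, as the combination minus LPS alone of the same set number. By the labels these groups also differ in the lipid binding protein, listed with LPS alone only, so that a difference made by ISO or PGE2 cannot be told apart from one made by that protein. The numbers pair the samples for these comparisons: within a time, all 27 pairs of same-numbered sets from the 3 treatments with LPS deviated together from their group means (r from 0.197 to 0.766 across genes). Over the 6 members, 2 combinations and 3 times, 0 of 36 differences were called in limma. At an unadjusted p under 0.05 there was 1, the lowest adjusted p was 0.814, and 0 of the 612 values under alternative settings passed. The p-values, SEs and intervals given for these differences come from the fit of group means, which leaves the set number out. They therefore do not use the pairing, and no interval that uses it is given. With the set number within time as a block, 0 of the 36 differences were called.

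Few genes of any kind were called here. Against LPS alone, LPS+ISO changed 0.019, 0 and 0.0951% of all genes at 1, 2 and 4 h (2, 0 and 10 genes) and LPS+PGE2 0, 0 and 0.0285% (0, 0 and 3 genes). With the set number within time as a block these were 6, 16 and 53 genes and 3, 3 and 50 genes, still with none of the 6 members among them. All 3 sets lay above LPS for 10 of the 36 member differences and below it for 7; over all genes, 12.0 to 16.1% of genes per comparison had all 3 sets above and 11.6 to 14.7% all 3 below.

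**Figure D3:**
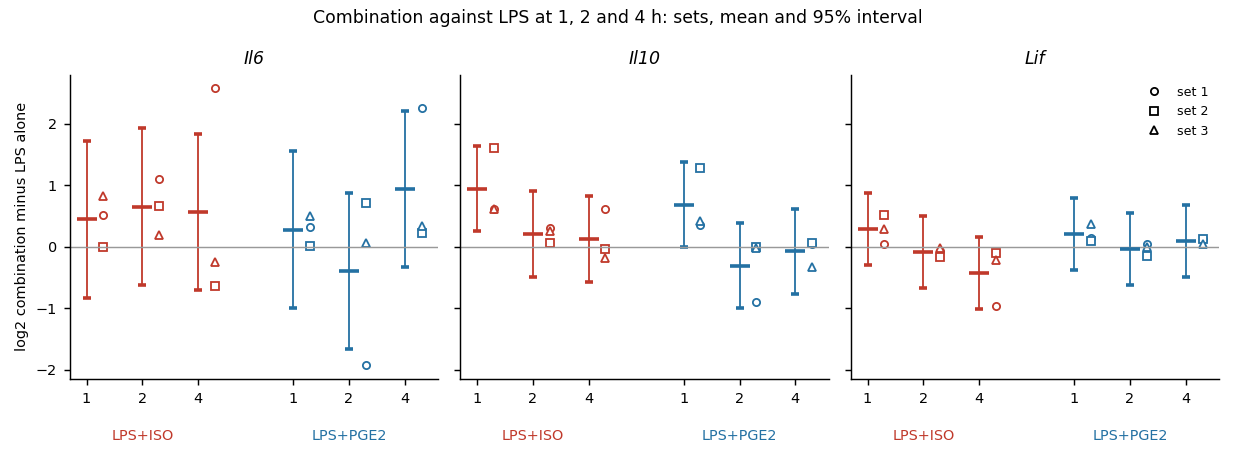
Combination minus LPS alone (log2), set by set, for Il6, Il10 and Lif at 1, 2 and 4 h; points are sets, and bars with whiskers the mean and its 95% interval; Lif is the mean of its 2 probes. Il10 at 1 h lies above 0 in all sets of both combinations, and the Il6 points at 4 h are spread by set 1, at 2.57 and 2.25.

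The largest departure by p was Il10 with LPS+ISO at 1 h. Set by set it exceeded LPS alone by 0.60, 1.60 and 0.62, a mean of 0.94 (1.92-fold, SE 0.34, 95% interval 0.25 to 1.64, unadjusted p = 0.00943, adjusted p = 0.814). All 3 sets were above 0, and set 2, in which LPS alone was at -0.26, was far above the others. Leaving out 1 set of LPS or of LPS+ISO at a time gave 0.40 to 1.36. With LPS+PGE2 at 1 h the differences were 0.35, 1.27 and 0.42 (mean 0.68, 95% interval -0.01 to 1.38, adjusted p = 1; 0.14 to 1.10 on leaving out sets). Both comparisons use the same LPS sets, so they are not separate evidence. By 2 h the LPS+ISO differences were 0.31, 0.06 and 0.25, and by 4 h 0.61, -0.05 and -0.19.

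Il6 showed no called difference and wide intervals. At 1 h the LPS+ISO differences were 0.52, -0.01 and 0.82, at 2 h 1.10, 0.65 and 0.19, and at 4 h 2.57, -0.64 and -0.25. The LPS+PGE2 differences were 0.31, 0.01 and 0.50, then -1.93, 0.70 and 0.05, then 2.25, 0.21 and 0.33. At 4 h both large values belong to set 1, in which 1 LPS array is listed at 0. The 4 h means were 0.56 for LPS+ISO (95% interval -0.71 to 1.83) and 0.93 for LPS+PGE2 (-0.34 to 2.20), both at adjusted p = 1. With exact zeros taken as missing, they were -0.36 and 0.01. The 2 h value of -1.93 likewise came from set 1 of LPS+PGE2, whose arrays gave 0.00 in Cy5 and 0.96 in Cy3.

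Lif differed most with LPS+ISO at 4 h, by -0.96, -0.11 and -0.23 (mean -0.43, SE 0.29, adjusted p = 1), in which set 1 is the one with an array at 0. Elsewhere the mean Lif differences lay between -0.09 and 0.28. These values average in the zeros of probe 11412. On probe 9040 the differences were larger, at -0.87 for LPS+ISO at 4 h (sets -1.92, -0.23 and -0.45; 95% interval -2.05 to 0.32), 0.62 for LPS+ISO at 1 h (0.18, 1.13 and 0.56; -0.56 to 1.81) and 0.43 for LPS+PGE2 at 1 h (0.29, 0.28 and 0.72; -0.75 to 1.61). None of the 6 differences on this probe was called (adjusted p from 0.986 to 1, fitted by probe). The differences of Il12a, Il12b and Il23a were small throughout, with means from -0.25 (Il12b, LPS+PGE2 at 4 h; sets -0.47, -0.06 and -0.21) to 0.16 (Il12b, LPS+PGE2 at 2 h). These p-values do not show that a combination acts like LPS alone: for Il23a, with LPS+PGE2, the 95% intervals were -0.22 to 0.34, -0.22 to 0.35 and -0.30 to 0.26 at 1, 2 and 4 h.

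Between the combinations, LPS+PGE2 against LPS+ISO, 0 of 18 member values were called, and 0% of all genes were called in limma at 1, 2 and 4 h (0, 0 and 1 genes with the set number within time as a block). At an unadjusted p under 0.05 there was 1, Il12b at 4 h (-0.33, 95% interval -0.59 to -0.07, adjusted p = 1). Il6 at 2 h was 1.04 lower on the log2 scale with PGE2, a value of -1.04 (95% interval -2.31 to 0.23, adjusted p = 1).

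Against the sum of the single treatments, where the lipid binding protein differs in the same way, again 0 of 36 values were called in limma, where 0, 0.00951 and 0.0856% of all genes departed for ISO and 0% at each time for PGE2. At an unadjusted p under 0.05 there were 2: Il10 with ISO at 1 h (0.93, SE 0.42, adjusted p = 0.82) and Il12b with PGE2 at 1 h (-0.47, SE 0.17, adjusted p = 1). Il10 lay above the sum at all 3 times with ISO, at 0.93, 0.48 and 0.47, and with PGE2, at 0.86, 0.14 and 0.33.

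Other genes of the pathway were read from fixed lists; over all genes, 9.48, 15.9 and 30.7% were called with LPS alone at 1, 2 and 4 h. Of 11 further ligands of the families, 6 were measured, and 2 were called higher by LPS alone at each time. These were Il20, an Il10 family cytokine that acts mainly on epithelium (0.41 ± 0.30, 1.09 ± 0.17 and 1.10 ± 0.25 at 1, 2 and 4 h), and Ctf1, cardiotrophin 1, another gp130 ligand (0.56 ± 0.34, 0.57 ± 0.29 and 0.43 ± 0.14). The median of the 6 was 0.08, 0.09 and 0.05. Il27, Osm, Cntf, Il19 and Il24 were not measured here.

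Among 9 of 11 receptors measured, none was called with LPS alone at 1 h, 1 was called higher and 1 lower at 2 h, and 1 higher and 3 lower at 4 h. Beside 15.9 and 30.7% over all genes, 2 and 4 of 9 are too few to set the receptors apart. Il10ra, the ligand-binding chain of the Il10 receptor, rose (1.15 ± 0.38 at 2 h and 1.36 ± 0.27 at 4 h). The shared chain Il6st fell by 0.96 on the log2 scale at 4 h (SD 0.25, adjusted p = 0.000341) and Il6ra, the Il6-binding chain, by 0.49 (adjusted p = 0.00026). Il12rb1, which serves interleukins 12 and 23, was lower at 4 h (-0.32 ± 0.17, adjusted p = 0.0369) and Il12rb2 at 2 h (-0.17, adjusted p = 0.0447). Il10rb was the one receptor called with ISO alone (0.49 at 2 h, adjusted p = 0.00366).

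The JAK-STAT list had 12 of 13 genes measured. With LPS alone none was called at 1 h, 7 were higher and 1 lower at 2 h, and 8 higher and 2 lower at 4 h, with medians of 0.10, 0.32 and 0.66. Jak2, a kinase used by gp130 and by Il12 receptors, stood at 0.08 ± 0.13, 1.60 ± 0.34 and 1.95 ± 0.19. Socs1, an inhibitor of JAK kinases, stood at 0.59 ± 0.36, 1.31 ± 0.36 and 2.34 ± 0.56, and was not called at 1 h (adjusted p = 0.0653). Stat3, the factor downstream of Il6 and Il10, was higher at 2 h (0.31 ± 0.11) and at 4 h (1.45 ± 0.28). Bcl3, which binds p50 and is induced by Il10, reached 1.80 ± 0.53 at 4 h. Pias3, an inhibitor of Stat3, fell by 0.52 at 2 h and by 0.76 at 4 h on the log2 scale. Socs3, the feedback inhibitor of gp130, was not called, at 0.02, 0.05 and 0.09.

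Of 18 transcription factors known at these promoters, 16 were measured. LPS alone raised 7 at 1 h, raised 10 and lowered 1 at 2 h, and raised 9 at 4 h, with medians of 0.62, 0.93 and 0.61. Nfkbiz, the IkB-zeta coactivator required for Il6 induction, was the highest of the list at 1 h, at 3.68 ± 0.67, and stayed high (3.87 ± 0.23 at 2 h and 3.02 ± 0.30 at 4 h). Cebpd, which binds C/EBP sites, was at 0.02 ± 0.39 at 1 h and rose to 1.74 ± 0.72 and 3.31 ± 0.10. Irf8, an Il12b factor of macrophages, was not called at 1 or 2 h and rose at 4 h (1.49 ± 0.25). Fos was the 1 lowered, at 2 h (-0.76 ± 0.13).

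ISO and PGE2 moved several of these factors without LPS. Cebpb, a C/EBP factor, rose with ISO at 1 and 2 h (1.03 and 0.91, adjusted p = 1.16e-06 and 6.21e-06) and with PGE2 (0.61 and 0.58, adjusted p = 0.0466 and 0.00711). Crem, a cyclic AMP-responsive modulator, rose with ISO at 2 h (1.11, adjusted p = 0.00546). Atf3, a repressor of Il6 and Il12b, fell at 2 h by 2.13 with ISO (adjusted p = 0.000898) and by 1.64 with PGE2 (adjusted p = 0.0403), whereas with LPS it rose (1.52 ± 0.64, 1.20 ± 0.19 and 2.30 ± 0.10). Irf8 fell at 2 h by 0.68 with ISO and by 0.49 with PGE2. Nfkb2 was higher with ISO at 4 h (0.52, adjusted p = 0.0426). Of the factors acting on cytokine mRNA, 2 of 6 were measured; Zfp36 (tristetraprolin), which destabilises cytokine transcripts, rose with LPS (3.49 ± 0.42, 1.67 ± 0.27 and 3.14 ± 0.35) and with ISO at 1 h (0.94, adjusted p = 0.00188). No gene of any list was called for a combination against LPS alone.

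**Figure D4:**
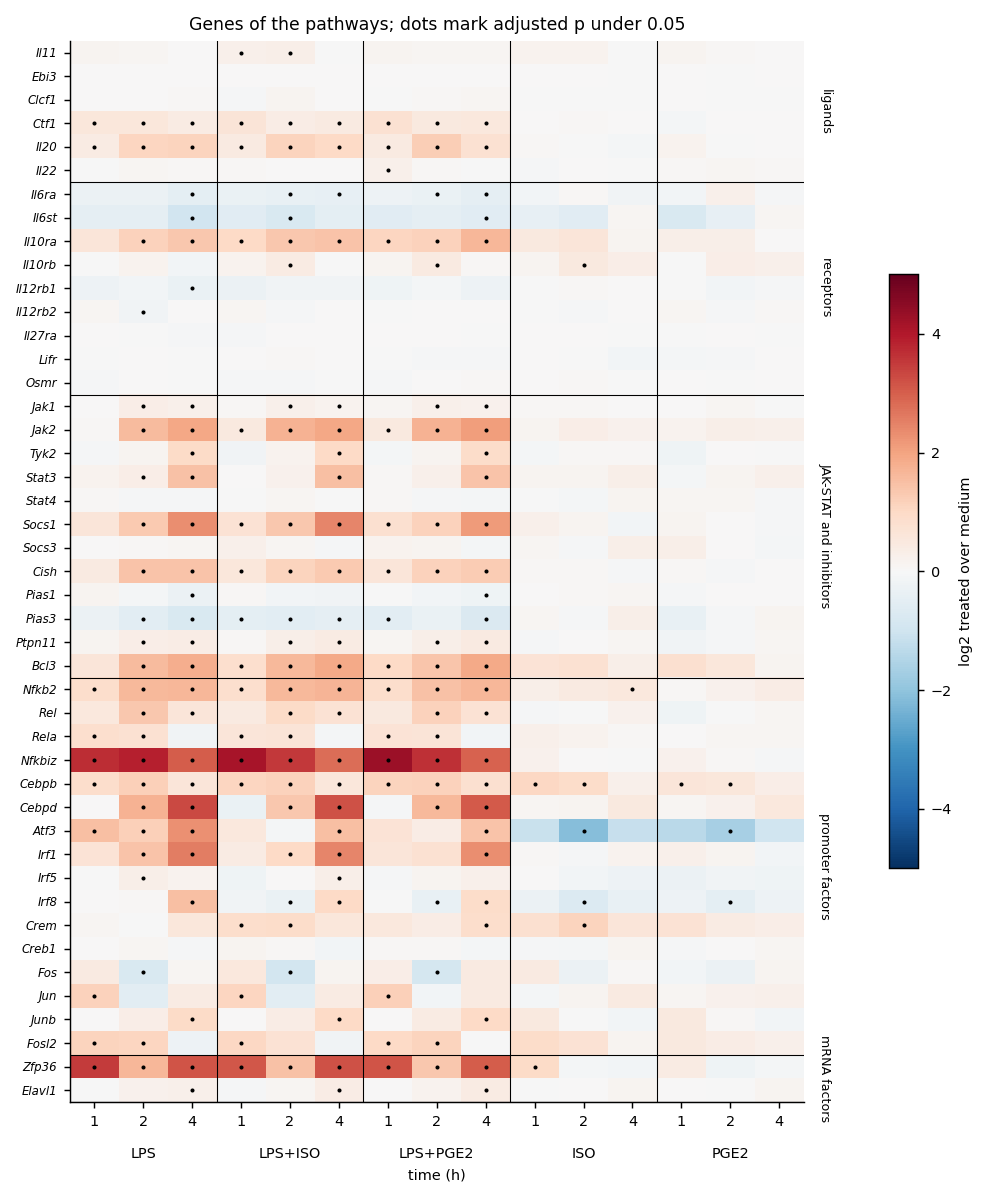
Log2 ratio over medium (colour) of each measured gene of the fixed lists (rows) at 1, 2 and 4 h of each treatment (columns); dots mark an adjusted p under 0.05. Under LPS Nfkbiz and Zfp36 are high at 1 h, Cebpd, Socs1 and Jak2 at 2 and 4 h, and Atf3 is low at 2 h with ISO and PGE2.

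The genes most like each member over the 44 sets were found by Pearson correlation among the 8588 genes measured on at least 50% of arrays. The 27 sets with LPS and the 17 without lie apart for most of these genes, so the values describe a pattern and carry no test. Il6 was most like Cxcl11 (r = 0.97), Arhgef3 (0.967) and Fas (0.965), Il10 most like Plaur (0.961), Bcl2a1d (0.958) and Stk40 (0.957), and Lif most like Tnip1 (0.958), Gadd45b (0.957) and Hbegf (0.951). For comparison, 1% of genes exceeded 0.903 with Il6, 0.879 with Il10 and 0.856 with Lif. The other members had lower maxima: Il23a reached 0.806 with Fosl1, Il12a 0.745 with Ppib and Il12b 0.554 with Npc1. Among the members, Il10 and Lif correlated at 0.923, Il6 and Il10 at 0.874 and Il6 and Lif at 0.713, whereas Il12b was at -0.14 to -0.18 with each of the other 5.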

How the data were processed

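RNA of treated RAW 264.7 cells and of time-matched medium controls was hybridised to 2-colour Agilent arrays with dyes swapped within each set, per the labels. The deposited value table holds log2 ratios per probe, limited to a 100-fold difference (17 values sit at that limit); no label or header used here names the scanner processing, background correction or normalization behind them. Every column has a median of 0, which 10.9 to 45.7% of exact zeros per array set; the median of the values other than 0 ran from -0.03 to 0.02. The scale follows from that limit, the centring is of unknown origin, and the direction, treated over medium, was turned by the dye labels and is likely, not stated.

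Of 16281 probes, 13738 had 1 gene in the platform annotation, 52 several and 2491 none; 13694 matched RefSeq by Entrez identifier. Probes at 0 on every array (478) were left out, arrays of a set were averaged, then probes of a gene. A linear model (limma 3.58.1, R 4.3.3) with 15 group means over all 44 sets (29 residual degrees of freedom) and empirical Bayes moderation gave each contrast, with Benjamini-Hochberg adjustment over 10518 genes and a threshold of 0.05. The scripts were tested on simulated data.

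Alternatives covered zeros, dyes, centring, filters, probes, samples in the fit, replicate blocks and each set left out. Same-numbered sets within a time correlated with a median r of 0.361 (over 0.1 in 84 of 86 pairs), and those of different number with a median of -0.185. Deviations from a group mean sum to 0 within the group, so the second value is tied to the first and is not separate evidence. All 6 members are named whatever their values, and other genes only from fixed lists or as the 3 most correlated with a member. The members and lists were chosen with earlier results of these data known.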

Additional observations from a re-analysis of the deposited data

Results flagged for a closer look

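Il6 differed between times of LPS treatment, its ratio over medium rising by 2.52 on the log2 scale from 2 to 4 h (SE 0.62, limma, adjusted p = 0.00541), with set values of 2.41, 0.67 and 3.29 at 2 h and 2.75, 5.77 and 5.40 at 4 h. Il10 differed between times as well, rising by 1.72 from 1 to 2 h (SE 0.34, limma, adjusted p = 0.00424). Its sets went from 1.66, -0.26 and 1.06 to 2.66, 2.15 and 2.81. Both calls depended on single sets. The Il6 call was lost without set 2 at 2 h and without set 2 or set 3 at 4 h. The Il10 call was lost without set 2 at 1 h and without set 3 at 2 h. The Il6 value of 2.75 at 4 h includes an array listed at 0.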

How the results depend on the processing

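Over 192 values, 3085 were recomputed under alternatives: 2992 kept their direction and side of the threshold or had neither value past it (247 of these differ in sign), 78 lost the threshold, 15 gained it and 0 reversed. Members called in the 9 groups with LPS numbered 38 of 54. Fitting each group alone left 17, all among the 38, and the other settings gave 29 to 42. With each group fitted alone, the sets are fewer and the spread is of that group only. Which of these lost the calls was not tested. In that fit Il10 and Lif with LPS at 1 h kept their means of 0.82 and 0.96 (adjusted p = 0.54 and 0.367), as did Il6 at 2 h (2.12, adjusted p = 0.0795). On Cy5 arrays alone Il10 with LPS at 1 h was 0.79 (adjusted p = 0.0625). Leaving out each set in turn gave 0.40 to 1.36 for Il10 and 0.64 to 1.33 for Lif at 1 h, and 1.54 to 2.85 for Il6 at 2 h. The 1 call without LPS (Il12b, ISO at 4 h) was lost on the arrays of either dye alone and with each group fitted alone. On Cy5 arrays alone 1 other value without LPS was called, and on Cy3 arrays alone 0. With the set number within time as a replicate block the count without LPS became 2 and the count with LPS 42, of which 38 were shared. With the set number as a block across times the count with LPS stayed at 38. Neither block changed a call of a member for a combination against LPS. Of the alternatives, taking the probe measured on most arrays with zeros as missing was chosen after seeing the data. Ratios give no signal over background, so its limit is unknown.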
